A study of Homo sapiens with 24 samples.

Results

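The interferon response genes described here were IFIT1, IFIT2, IFIT3, IFI44L, MX1, OAS1, ISG15, IRF1 and IRF9. These 9 genes were taken from 21569 genes named in any of the 6 deposited tables of H3K27ac regions, and a region was assigned to a gene when the authors' annotation placed it over that gene or named the gene as a neighbour. The rule found 82 of the 171345 regions in all tables, among them 32 of 50284 regions compared between knockdown and control in 10A and 19 of 44790 in DCIS. H3K27ac, acetylation of lysine 27 on histone H3, was profiled by ChIP-seq to ask how this mark of active promoters and enhancers differs once ANCO1, the product of ANKRD11, is depleted. The labels describe 24 libraries in 8 groups of 3.

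Both lines are human mammary epithelial cells. MCF10A (10A) is a non-tumorigenic immortalised line, and MCFDCIS (DCIS) derives from the same lineage and models ductal carcinoma in situ. In each line the shANCO1 group carried a lentiviral hairpin against ANCO1 and the shCTRL group a control hairpin against GFP, and for each there were 3 immunoprecipitated libraries and 3 input libraries of sonicated chromatin that was not immunoprecipitated. All groups were grown in the same medium and selected with puromycin after lentiviral infection, and the labels name no interferon treatment. The study used 1 hairpin against ANCO1 for the ChIP libraries, so an effect of that hairpin and an effect of ANCO1 loss cannot be told apart. The tables hold 1 value per region for a whole group, so no value per library, no spread between replicates and no read depth was available, and nothing says whether the 3 libraries of a group came from separate cultures. Of 7 basal and epithelial marker genes, 3 to 5 had an enriched promoter region in each group, KRT5 and ITGB4 in every group. Of 5 markers of other cell types, PECAM1 had an enriched promoter region in all 4 groups and the other 4 genes had none.

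Interferons are secreted by cells that sense viral or misplaced nucleic acid. Type I and type III interferons act through JAK1 and TYK2 on the complex ISGF3, of which IRF9 is a part, and ISGF3 binds the interferon-stimulated response element (ISRE) in target promoters. Interferon gamma acts through the gamma-activated site (GAS), and IRF1 is a well-known target gene of that signal. IRF9 and IRF1 are thus the regulators among the 9 genes, and the other 7 are effectors that interfere with viral RNA, viral assembly or protein function.

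The promoters of the members differ in which of these elements they hold. RefSeq promoters on GRCh38.p14, from 250 bases before to 50 bases after each start, were matched by symbol for 8 of the 9 genes, all except IFIT2. The ISRE core, which is GAAA, any 2 bases and GAAA again and was read on both strands, was present in those of IFIT1, IFIT3, IFI44L, MX1 and ISG15, and in 3.57% of all 35116 promoters. The GAS motif TTCNNNGAA, which reads the same on both strands, was present in 7.66% of all promoters. The member promoters that held it were those of IRF1, IRF9, MX1 and OAS1. The OAS1 match began 168 bases before the start and is not printed below. One promoter of MX1 held an ISRE core and a GAS motif that overlapped each other. The following 30-base windows, written in the direction of the gene, show which element these promoters held, with the motif in capitals:
IFIT1: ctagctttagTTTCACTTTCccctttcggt
IFIT3: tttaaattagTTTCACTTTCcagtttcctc
IFI44L: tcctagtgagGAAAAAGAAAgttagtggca
MX1: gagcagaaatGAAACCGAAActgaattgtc
ISG15: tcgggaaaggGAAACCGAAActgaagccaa
IRF1: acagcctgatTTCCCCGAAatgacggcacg
IRF9: accacgtgatTTCTGGGAAaaggccctccc
The IFIT1 window was chr10:89392497-89392526 and its core began 116 bases before the start. The IFIT3 window was chr10:89327865-89327894, 122 bases before the first of its 2 annotated starts. The IFI44L window was chr1:78620365-78620394, 73 bases before the start, and the identical 30 bases occurred again 164 bases before it. The MX1 window was chr21:41420559-41420588 and its core began 11 bases after the first RefSeq start, in the 5′ UTR. The ISG15 window was chr1:1013380-1013409, and the IRF1 window was chr5:132490878-132490907 on the minus strand. The IRF9 window was chr14:24161192-24161221. A match describes the letters only and says nothing of binding in these cells.

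In 10A, H3K27ac was higher after ANCO1 knockdown at a start of 7 of the 9 genes, IFIT1, IFIT2, IFIT3, IFI44L, MX1, IRF1 and IRF9. However, 60.6% of all 10A regions within 1 kb of a protein-coding start were up. MX1 gained less than the median region of the line, and only at the first of its 3 annotated starts. IRF9 showed the largest gain of the 32 regions of 10A. In DCIS no start site of a member was called, where 7.38% of all DCIS regions within 1 kb of a protein-coding start were up. The 7 DCIS member regions that rose lay more than 1 kb from a start, near IRF1, ISG15, IFIT2 and OAS1. Of these, 2 carried the promoter code of the authors' annotation. Over all 32 member regions of 10A, 13 were up at FDR under 0.05, none was down and 19 were not called. That is 40.6% up, where 43.6% of all 10A regions were up and 0.225% were down. Over the 19 member regions of DCIS, 7 were up, none was down and 12 were not called, which is 36.8% up, where 23.6% of all DCIS regions were up and 4.86% were down. At an unadjusted csaw p under 0.05 the count down was also 0 in both lines. The FDR is that of the authors' csaw test, which compares 3 libraries with 3 over all regions of a table, and each log2 fold change below is shANCO1 over shCTRL at 1 representative window of a region. A change in the share of cells carrying the mark and a change within each cell cannot be told apart in such bulk libraries.

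The zero of these fold changes depends on a normalization that is not given in the sources used here. In 10A the median log2 fold change of all regions was 0.76, and in DCIS it was 0.52. The median of the member regions was 0.68 in 10A and 0.41 in DCIS, below the median of the line in both cases. Of the 13 regions up in 10A, 11 lay above the median of the line and all 7 regions up in DCIS lay above theirs. The largest distance above the median in 10A was 0.82, at IRF9. At least 1 region up was found for 7 of the 9 genes in 10A and for 4 in DCIS, while 74.3% of all named genes had one in 10A and 32.2% in DCIS.

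**Figure D1:**
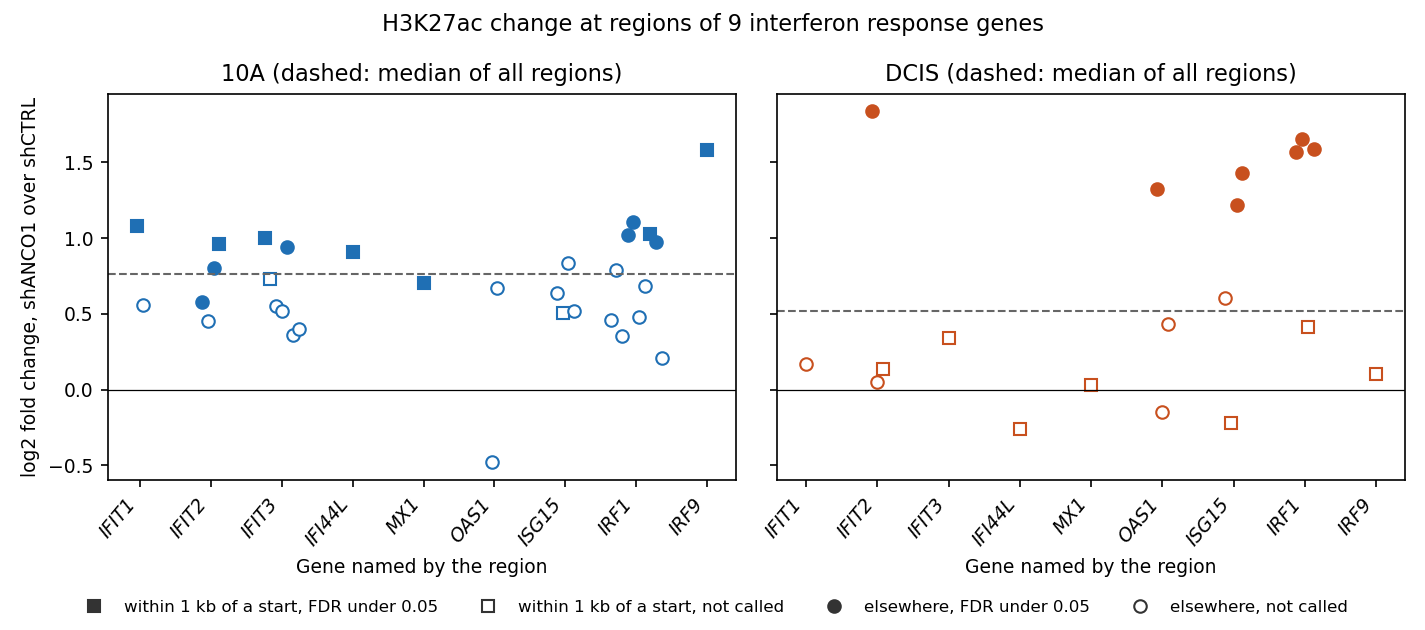
Log2 fold change of H3K27ac, shANCO1 over shCTRL, for each region naming 1 of 9 interferon response genes, in 10A and in DCIS, with squares for regions within 1 kb of a start of the gene, circles for other regions, filled symbols for FDR under 0.05 and a dashed line at the median of all regions of the line. In 10A 7 of 9 squares are filled and IRF9 is highest at 1.58, while in DCIS none of 7 squares is filled and the filled circles lie between 1.22 and 1.84.

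IRF9, the DNA-binding subunit of ISGF3, had a single region in each line. In 10A it covered chr14:24161101-24162000, over the start and the 5′ UTR, and its log2 fold change was 1.58 with an FDR of 4.31e-05. All 8 of its tested windows were up, and 97.3% of all 10A regions had a lower fold change. It held the GAS motif of the IRF9 promoter shown above and a further GAS match in its downstream part. In DCIS the region was chr14:24161301-24161800, and its log2 fold change was 0.11 with an FDR of 0.92 and no window called. The region also overlapped a neighbouring annotation that the authors name RNF31, so the mark there is not assigned to IRF9 alone.

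IRF1, the transcription factor that both interferon gamma and other inflammatory signals induce, had 10 regions in 10A, the most of any member there, and 4 in DCIS, as many as ISG15. Its GENCODE gene model runs from 132440440 to 132508719 on the minus strand of chromosome 5, beyond the canonical start at 132490773, and its regions also overlap gene models of RAD50 and in part IRF1-AS1. At the start, chr5:132489601-132491800 in 10A, the log2 fold change was 1.03 with an FDR of 0.0176. At the start in DCIS, chr5:132490501-132491600, it was 0.41 with an FDR of 0.486.

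Upstream of the IRF1 start lay a site that rose in both lines. In 10A the region chr5:132495001-132498900, 4228 bp upstream, had a log2 fold change of 0.97 with an FDR of 8.24e-05, and 13 of its 38 windows were up. In DCIS the region chr5:132495201-132498700, 4428 bp upstream, had a log2 fold change of 1.59 with an FDR of 0.0079, and 12 of its 30 windows were up. It was the only member site listed as enriched over input in all 4 groups. The following 30-base windows on the plus strand of GRCh38 lay in both of these regions and show an ISRE core and 2 of their 5 GAS matches, in capitals:
ISRE core: ggagcctgggTTTCGGTTTCttgcaaacgc
GAS, first: atcgaggagtTTCCGGGAAccgaaccacgc
GAS, second: gttggaggatTTCCCCGAAcatgacttgga
The matches were at chr5:132497025-132497034, chr5:132497070-132497078 and chr5:132497533-132497541. The stretch listed over input in both shCTRL groups was chr5:132496001-132496200 and held none of these matches. The ISRE core and the first GAS match lay in no listed stretch of any group. The second GAS match lay in a stretch listed in 10A shANCO1 cells only. Another GAS match, chr5:132496615-132496623, lay in listed stretches of both shANCO1 groups. The second GAS match has the 9 letters of the GAS motif in the IRF1 promoter.

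Further regions of IRF1 lay inside the long gene model downstream of the canonical start. In 10A the regions 30973 bp and 25273 bp downstream had log2 fold changes of 1.02 (FDR 0.00105) and 1.11 (FDR 0.0173). In DCIS the region 31273 bp downstream, chr5:132459001-132459500, had a log2 fold change of 1.66 with an FDR of 0.00962, and it fell within the 10A region chr5:132456501-132459800. The DCIS region 44373 bp downstream, chr5:132444801-132446400, had a log2 fold change of 1.57 with an FDR of 0.000535, and all 14 of its windows were up. The 10A region at that place had a log2 fold change of 0.46 with an FDR of 0.443. IRF1 thus held 3 of the 7 regions up in DCIS and 4 of the 13 up in 10A, and without its regions 4 of 15 were up in DCIS and 9 of 22 in 10A.

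**Figure D2:**
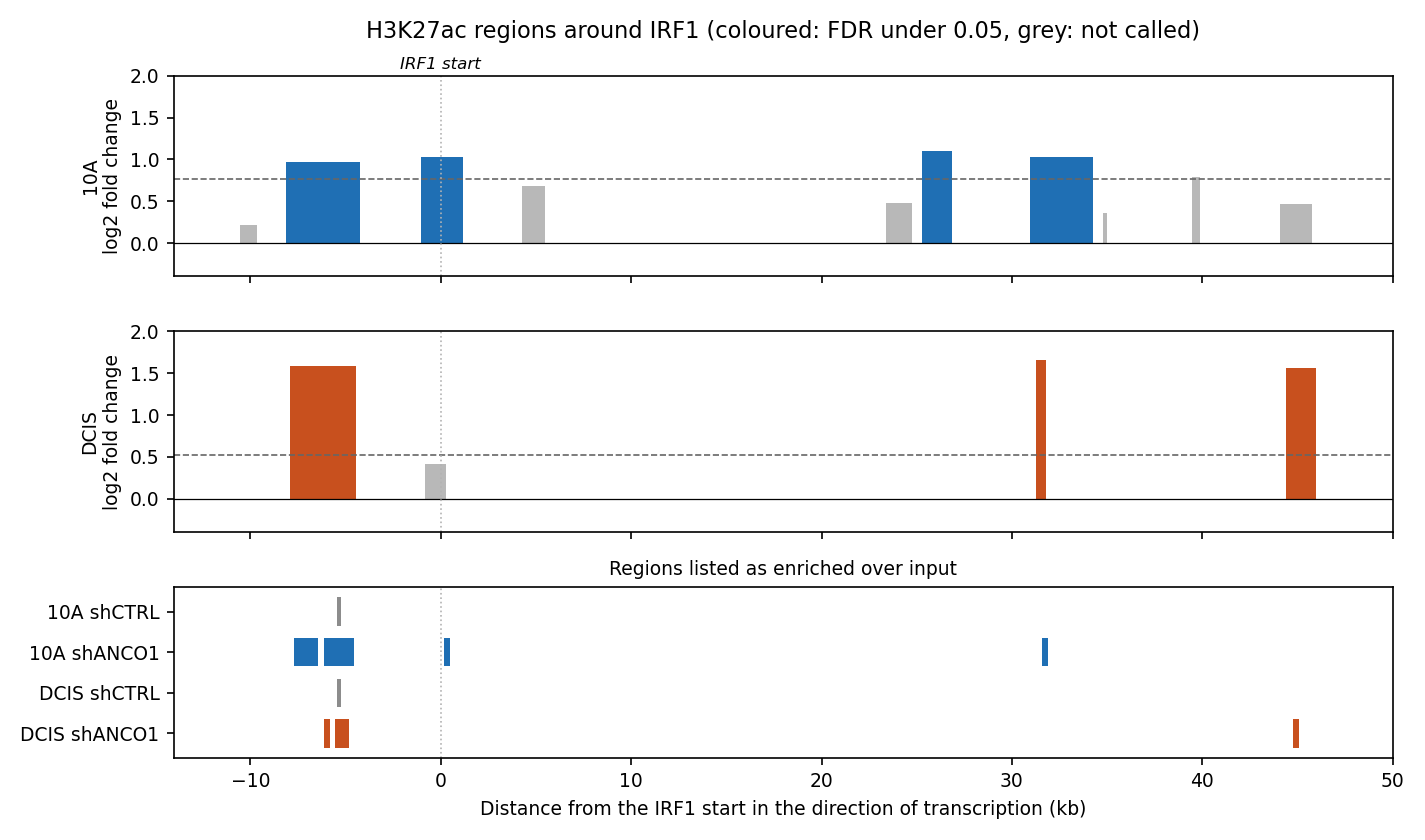
Regions around IRF1 by distance from its start in kb, counted in the direction of transcription, with bar height giving the log2 fold change of shANCO1 over shCTRL in 10A and DCIS, colour for FDR under 0.05, grey for regions not called, dashed lines at the median of each line, and regions enriched over input in the 4 groups below. The upstream site is coloured in both lines (0.97 and 1.59) and is listed over input in every group, whereas the start is coloured in 10A only.

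The IFIT genes encode proteins with tetratricopeptide repeats that bind viral RNA and the translation machinery, and they lie next to each other on chromosome 10, where a long gene model of LIPA, which encodes lysosomal acid lipase, spans the cluster. In 10A, 6 of 13 IFIT regions were up, which is 46.2%, beside 43.6% of all 10A regions. At the IFIT2 start, chr10:89301201-89303400, the log2 fold change was 0.96 with an FDR of 0.000572. At the first IFIT3 start, chr10:89327401-89329000, it was 1.00 with an FDR of 0.00389 and 11 of 15 windows up. At the second IFIT3 start, chr10:89332101-89333000, it was 0.73 with an FDR of 0.101. At the IFIT1 start, chr10:89392001-89392900, it was 1.08 with an FDR of 0.00696 and 3 of 8 windows up, and that region contained the ISRE core printed above. The 3 IFIT genes therefore each rose at 1 start in 10A, with gains between 0.96 and 1.08 on the log2 scale. All 10A regions within 1 kb of a protein-coding start had a median of 0.82, and 60.6% were up.

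The remaining IFIT gains in 10A lay away from these starts. An intronic region of IFIT3, chr10:89350601-89353500, 18072 bp after the nearest start, had a log2 fold change of 0.94 with an FDR of 0.00473 and 18 of 28 windows up. Upstream of the canonical IFIT2 start, the region chr10:89283001-89284700 had a log2 fold change of 0.81 with an FDR of 0.0179. It overlapped an annotated UTR of IFIT2, whose GENCODE gene model begins at chr10:89283694. Further upstream, the region chr10:89277501-89280200 had a log2 fold change of 0.58 with an FDR of 0.0417. The last of these was below the median of all 10A regions although it passed the test. The 7 IFIT regions not called in 10A had log2 fold changes from 0.36 to 0.73, and 1 of them lay over the neighbouring IFIT5.

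In DCIS, where 23.6% of all regions were up, 5 regions named an IFIT gene and 1 was up. That region, chr10:89277701-89278200, lay 23846 bp upstream of IFIT2 over LIPA, had a log2 fold change of 1.84 with an FDR of 0.00473 and all 4 of its windows up, and overlapped the most upstream 10A region. At the starts the log2 fold change in DCIS was 0.14 for IFIT2 with an FDR of 0.885 and 0.34 for IFIT3 with an FDR of 0.832. No DCIS region lay within 1 kb of the IFIT1 start. Because the distal region is within LIPA, it cannot be told apart whether its mark belongs to IFIT2 or LIPA.

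**Figure D3:**
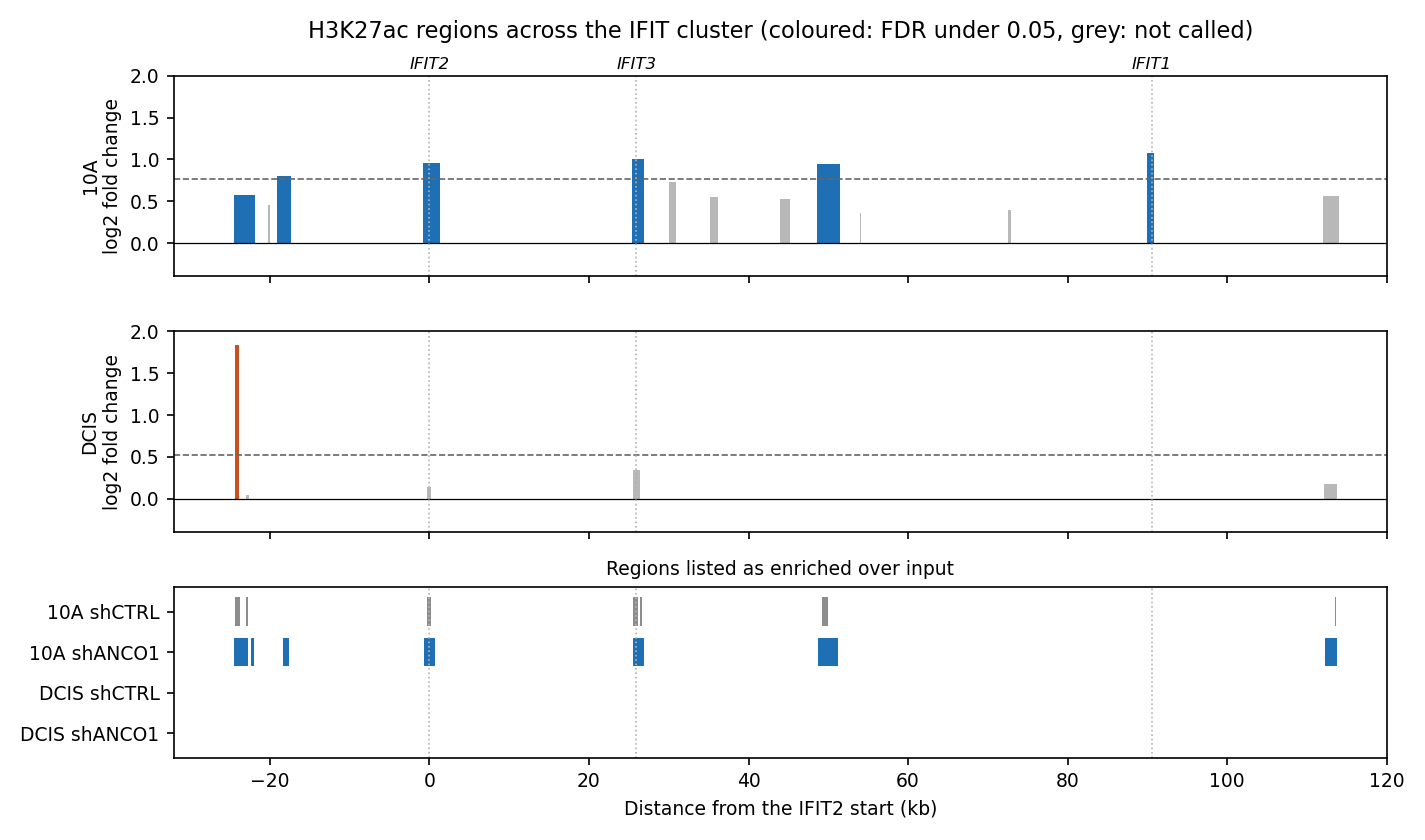
Regions of the IFIT cluster by distance in kb from the IFIT2 start, drawn as for IRF1, with dotted lines at the starts of IFIT2, IFIT3 and IFIT1. In 10A the regions at the starts of all 3 genes are coloured and lie between 0.96 and 1.08, and in DCIS only the region 23846 bp upstream of IFIT2 is coloured, at 1.84, with no region of these genes enriched over input.

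IFI44L and MX1 each had 1 region in each line, over the start of IFI44L and over the first of 3 annotated starts of MX1. No region that named MX1 lay at its canonical start, chr21:41426239. At IFI44L, an interferon-induced protein linked to feedback on the response, chr1:78619201-78621200 in 10A had a log2 fold change of 0.91 and the FDR closest to the threshold among the called regions, 0.0487, with 3 of 19 windows up. In DCIS chr1:78619501-78621200 had a log2 fold change of -0.26 with an FDR of 0.964, the lowest value of any member region there. At MX1, a dynamin-like GTPase that blocks viral replication, chr21:41420101-41421100 in 10A had a log2 fold change of 0.70 with an FDR of 0.0347, below the median of the line. In DCIS chr21:41420401-41421100 had a log2 fold change of 0.03 with an FDR of 0.994.

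ISG15, the ubiquitin-like modifier that is conjugated to proteins during the response, had 4 regions in each line. At the start the log2 fold change was 0.50 with an FDR of 0.516 in 10A and -0.22 with an FDR of 0.912 in DCIS, so it was not called in either. The nearest 10A region outside the threshold, chr1:1020101-1022400, lay 6604 bp after the start over AGRN, which encodes the basement membrane proteoglycan agrin, and had a log2 fold change of 0.84 with an FDR of 0.0603. In DCIS that place, chr1:1020601-1022100, rose by 1.22 with an FDR of 0.0265, and chr1:1023901-1025900 rose by 1.43 with an FDR of 0.0059, both within an intron of AGRN. ISG15 was named for those regions as the neighbour only.

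OAS1, an oligoadenylate synthetase that activates RNase L on sensing double-stranded RNA, had no region within 1 kb of its start in either line. Its 2 regions in 10A lay beyond the gene towards OAS3 and had log2 fold changes of 0.67 (FDR 0.284) and -0.48 (FDR 0.532), and the latter was the only negative value among the 32 member regions. In DCIS the region chr12:112904301-112904600, 2362 bp upstream, had a log2 fold change of 1.33 with an FDR of 0.0191 from 2 windows, both up. A second upstream region in DCIS, 1562 bp from the start, had a log2 fold change of -0.15 with an FDR of 0.904.

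Counting the starts, 9 regions of 10A lay within 1 kb of a member start, for 8 of the 9 genes, and 7 were up. Among all 11803 regions of 10A within 1 kb of a protein-coding start, 60.6% were up, 0.0508% were down and the median log2 fold change was 0.82, beside 0.96 for the member regions. In DCIS 7 regions lay within 1 kb of a member start and none was up or down by csaw at FDR under 0.05, where the lowest FDR was 0.486 and 0 regions had an unadjusted p under 0.05. Among all 12743 such regions of DCIS, 7.38% were up, 2.11% were down and the median log2 fold change was 0.12, beside 0.11 for the member regions. By the authors' wider promoter code, which follows every gene model, 10 of 17 member regions were up in 10A (50.8% of all such regions up, 0.128% down) and 2 of 12 in DCIS (16.3% up, 3.27% down). Whether the members differ from other genes in this respect was not tested.

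Sites were next paired between lines by an overlap of at least 1 bp. There were 17 pairs, joining 16 of the 32 regions of 10A with 17 of the 19 of DCIS. Both partners were up in 3 pairs, the IRF1 upstream site, the IRF1 site near 31273 bp downstream and the site far upstream of IFIT2. The 10A partner alone was up in 7 pairs, the DCIS partner alone in 3 and neither in 4. The difference between lines has no test in these tables, so an FDR under the threshold in 1 line and over it in the other does not show that the lines differ.

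The tables of each group against input show where the mark was present. They list only regions far above input, with log2 fold changes over input of at least 1.74, so a gene that is not listed may still carry the mark at a lower level. In 10A shCTRL cells 5 members had an enriched region and in 10A shANCO1 cells 8 had one, all but OAS1. By overlap entry only the counts were 4 and 7, since IFIT1 was named only as the neighbour of a region over IFIT5. The share of all genes named by any enriched region was not counted, so these counts have no background. The starts of IFIT2, IFIT3 and IFI44L were enriched in both 10A groups, and those of MX1, IRF1 and IRF9 in the shANCO1 group alone. That is 3 of 9 starts and then 6 of 9, where 25.9% and 47.6% of all 20020 protein-coding genes had an enriched start. In DCIS 1 member, IRF1, was listed in shCTRL cells and 2 in shANCO1 cells, IRF1 and, as the neighbour only, ISG15. No start of a member was enriched in DCIS, where 34.6% and 35.8% of all genes had an enriched start.

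Together the member regions enriched in 10A covered 16900 bp in shANCO1 and 4100 bp in shCTRL cells. Counted as regions they were 17 and 9, beside 28607 and 15490 enriched regions in all. The total length of all enriched regions was not computed, so the member lengths have no background. Whether the lengths at the members grew more than those of all regions was not tested. IFIT2 had 4300 bp and 1400 bp, IFIT3 3800 bp and 1500 bp, IFI44L 1300 bp and 800 bp, and IRF1 3500 bp and 200 bp. The listed log2 fold change over input at the 3 starts enriched in both groups was not higher in shANCO1 cells. Each value is that of 1 representative window, and the regions differed in width between groups. The windows compared need therefore not be at the same place. At the IFI44L start the log2 fold change over input was 4.0 in shCTRL and 3.83 in shANCO1 cells, at the IFIT2 start it was 3.72 and 3.70, and at the IFIT3 start it was 3.88 and 2.81. At other sites listed in both groups it was higher in shANCO1 cells, 2.40 and 3.55 near IFIT5, where the region names IFIT1 as its neighbour, 3.56 and 4.0 in the IFIT3 intron, and 2.34 and 2.80 upstream of IRF1, while far upstream of IFIT2 it was 4.40 and 3.75. At starts listed in the shANCO1 group alone it was 3.37 for MX1, 3.24 for IRF1 and 3.02 for IRF9. In DCIS the IRF1 upstream site had a log2 fold change over input of 2.93 across 200 bp in shCTRL cells and of up to 4.98 across 2 stretches of 700 bp and 300 bp in shANCO1 cells. The groups were tested separately against input, and their difference was not tested by these tables.

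**Figure D4:**
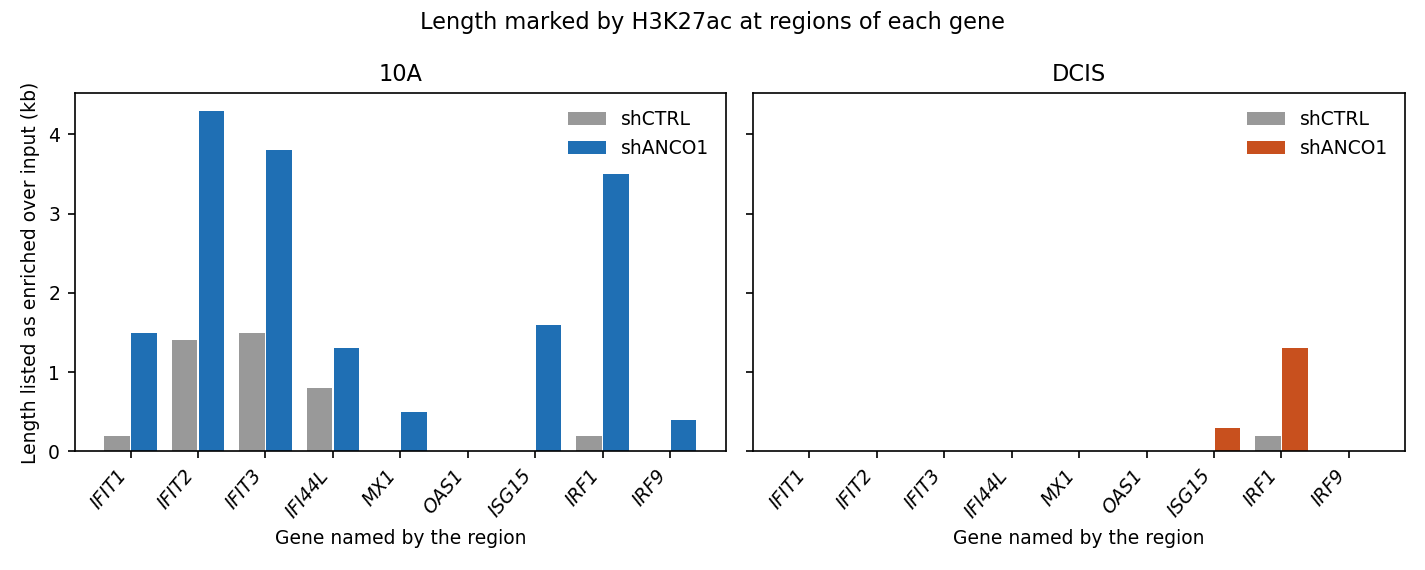
Length in kb listed as enriched over input at regions naming each gene, in shCTRL (grey bars) and shANCO1 cells (coloured bars) of 10A and DCIS. IFIT2, IFIT3 and IRF1 have the longest bars in 10A shANCO1 cells, 4300 bp, 3800 bp and 3500 bp, OAS1 has none in any group, and in DCIS only IRF1 and ISG15 have bars.

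The letters of the elements were also counted in the 500 bases at the midpoint of each region, read from the GRCh38 genome. The ISRE core was present in 6 of 32 member regions in 10A (18.8%, beside 8.25% of all regions) and in 7 of 19 in DCIS (36.8%, beside 7.53%). The GAS motif was present in 6 regions of 10A (18.8%, beside 15.8%) and in 5 of DCIS (26.3%, beside 14.4%). Of the member regions up, 4 of 13 in 10A and 1 of 7 in DCIS held an ISRE core, beside 7.97% and 7.96% of all regions up. The AP-1 motif TGACTCA, or its reverse complement, was present in 3 member regions of 10A (9.38%, beside 18.3% of all) and in 1 of DCIS (5.26%, beside 15.4%). The same sites count in both lines, and these shares are descriptions without a test.

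The other genes of the pathway were followed in a list of 77 genes by role. In 10A 134 regions named 56 of them, 65 were up and none was down, which is 48.5% up beside 43.6% of all regions. In DCIS 108 regions named 52 of them, 18 were up and 2 were down, which is 16.7% up beside 23.6% of all regions, where 4.86% were down. Their median log2 fold change was 0.78 in 10A and 0.54 in DCIS, beside 0.76 and 0.52 for all regions. Of the 8 ligand genes 2 had a region, the interferon gene IFNK and IL6, which is not an interferon gene. No region named or lay over the genes of interferon beta, interferon gamma or the 3 lambda interferons listed, in either line.

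The counts by role stand beside the same shares of all regions, 43.6% up in 10A and 23.6% in DCIS. Ligand regions, all of IFNK or IL6, were up in 4 of 6 cases in 10A and in 0 of 3 in DCIS. Receptor regions, which name all 6 subunit genes listed, were up in 8 of 16 cases in 10A and in 0 of 11 in DCIS. Among the signal transducers 12 of 29 were up in 10A and 4 of 22 in DCIS. Among the nucleic acid sensors 7 of 15 were up in 10A and 3 of 12 in DCIS, and among the negative regulators USP18, SOCS1 and SOCS3, 3 of 5 and 0 of 7. Antiviral effectors had 31 of 61 regions up in 10A and 10 of 49 in DCIS, where 2 were down. The antigen presentation genes had 1 region in each line, near B2M, and it was not called, while chemokine genes had 1 region in 10A, not called, and 3 in DCIS, of which 1 was up.

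Of the list, 38 of 53 genes with a promoter-coded region had one that passed the test in 10A and 11 of 50 in DCIS. In 10A all of these regions rose, but the DCIS count takes in IFITM1, IFITM2 and BST2, whose called regions fell. Of all promoter-coded regions of 10A, 50.8% rose and 0.128% fell. For DCIS the same shares were 16.3% and 3.27%. They are shares of regions and not of genes, and whether the list differs from them was not tested. A promoter region passed the test in both lines for 10 genes, ADAR, DDX58, DDX60L, GBP3, IFITM1, IFITM2, IRF2, OASL, SAMD9 and STING1. At SAMD9, which restricts poxvirus replication, 10A had a log2 fold change of 0.88 with an FDR of 0.00136 over the start, and DCIS had 2.40 with an FDR of 2.03e-06 in a region 1479 bp after it. At DDX60L, a relative of the RNA helicase DDX60, the start rose by 0.99 (FDR 0.000435) in 10A and by 1.68 (FDR 0.000361) in DCIS. At GBP3, a guanylate-binding protein, it rose by 1.05 (FDR 2.38e-05) and 1.28 (FDR 0.0323). At STING1, the adaptor of cytosolic DNA sensing, it rose by 0.81 (FDR 0.00601) and 1.15 (FDR 0.0279).

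For the other named genes the regions in the 2 lines were not always at the same place. DDX58, the RNA sensor also called RIG-I, rose at its start in 10A by 1.37 (FDR 0.0103) and in DCIS by 1.93 (FDR 0.00122) in a region 23696 bp downstream. IRF2, which competes with IRF1 for its sites, rose 55650 bp after its start in both lines, by 0.99 (FDR 0.0162) in 10A and 1.51 (FDR 0.00122) in DCIS. OASL, an oligoadenylate synthetase-like protein, rose by 1.98 in DCIS (FDR 0.0011), 4746 bp after its start, inside a 10A region that rose by 0.81 (FDR 0.00402). ADAR, which edits double-stranded RNA, rose at different annotated starts, by 1.17 (FDR 0.00146) in 10A and 0.95 (FDR 0.0403) in DCIS.

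IFITM1 and IFITM2, membrane proteins that hinder viral entry, share 1 called region in DCIS and moved in opposite directions in the lines. In DCIS the region chr11:307601-310400 had a log2 fold change of -1.53 with an FDR of 0.0342, and 4 of its 23 windows were down. In 10A the region chr11:309601-310400 within it rose by 1.35 with an FDR of 0.00168. At the IFITM1 start itself the DCIS region, chr11:313601-314900, had a log2 fold change of -1.30 with an FDR of 0.214. No 10A region that named IFITM1 lay at its start. The only other region of the list that fell in DCIS was at BST2, which encodes tetherin, where the log2 value was -2.15 at an FDR of 0.00703, and no 10A region named BST2, a gene named here after its value was seen.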

How the data were processed

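According to the methods, paired-end reads were aligned by the authors to GRCh38 (BWA, Rsubread), duplicates were dropped (SAMtools) and binding was tested in csaw. The deposited log2 fold changes are the authors' values at 1 representative window of each region, and the deposited FDR values and p-values come from their csaw test over all regions of a table. Deposited numbers of windows count tested windows, not reads, and the p-values measure the spread among 3 libraries a group, which may be technical. Normalization, window filters and merging are not given in the sources used here. The columns of the authors' comparisons are the only values in the tables and were used directly.

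Regions were matched by exact symbol in the overlap or flank entries (flanks reached 10000 bp), with FDR under 0.05 and the authors' direction as the call. Starts were those of GENCODE release 44 canonical transcripts and the RefSeq promoter table, with 1 kb on each side. The promoter-coded region with the most windows was planned as each member's promoter value, but in several genes it lay away from the start, so regions near starts are given instead. All 9 members, and pathway genes with a promoter region called in both lines, were named. Members and lists were chosen with earlier results of these data known. Parsing and motif search were tested on simulated data. Python 3 with pandas and numpy was used, and coordinates are 1-based. Some items are not reported here.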

Additional observations from a re-analysis of the deposited data

How the results depend on the processing

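No paired analysis was possible because the tables hold no value per library, and for the same reason no replicate could be left out and depth could not be weighed. Of 74 alternative values, 51 stayed within 1.5 times the value as reported and 23 moved, and no direction turned, with 0 member regions down under every alternative for either line. The 51 include every alternative to a count down that was 0 as reported. A stricter limit cannot lower a count of 0, so the 51 overstate how stable the results are. In 10A the 13 member regions up became 7 at FDR under 0.01, 5 where the log2 value was 1 or more in size, 0 at 1 log2 unit or more above the median of the line and 2 among regions that name no other gene. In DCIS the 7 up became 4 at 1 log2 unit above the median, 4 by overlap entry only, 2 by promoter code only, 4 with at least 5 windows, 1 among regions that name no other gene and 4 without IRF1, the last added after the data were seen. Members enriched over input in 10A shCTRL went from 5 to 3 at FDR under 1e-10, with at least 5 windows, or within 1 kb of a start. In DCIS shCTRL the count of 1 became 0 under each of these 3, and in DCIS shANCO1 the 2 became 1 by overlap entry only, 1 with at least 5 windows and 0 within 1 kb of a start. The promoter region with the most windows was up for 7 members in 10A and 2 in DCIS, and in DCIS 0 were up within 1 kb of a start, a limit added after the data were seen. Pathway regions up in 10A fell from 65 to 30 at FDR under 0.01, those up in DCIS from 18 to 10 by promoter code only, and those down in DCIS from 2 to 1 at FDR under 0.01. Stricter limits give fewer regions by construction.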
